A study of Mus musculus with 8 samples.

Results

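Wnt ligands are a family of secreted, lipid-modified proteins, and the mRNA of 10 of them was followed here across mouse pluripotent stem cell cultures and mesoderm progenitors. The 10 genes (Wnt3, Wnt3a, Wnt4, Wnt5a, Wnt5b, Wnt6, Wnt7b, Wnt8a, Wnt11 and Wnt2b) were taken by name from the GENCODE vM1 annotation, out of 19 Wnt ligand genes and 37620 genes in the count files. They were chosen with earlier results of these data known, so their counts beside the share of all genes are not an independent check. All 10 passed the filter for low counts (at least 10 counts in at least 2 libraries), which 16961 genes passed in all. The level of a gene is given as CPM, its count per 1000000 counts assigned to genes in the same library.

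The bulk RNA-seq data comprised 8 libraries in 5 groups. Of these, 7 came from R1, a mouse embryonic stem cell line, and 1 from a CDX2-GFP line, which carries a green fluorescent reporter of Cdx2. All stem cell cultures were grown without feeder cells in medium with serum and received the GSK3 inhibitor CHIR99021 and the MEK inhibitor PD0325901. This pair alone was called 2i (1 library, day 5). With a JAK inhibitor added it was called 2iJ (1 library, day 5). With the JAK inhibitor, BMP4 and the ALK5 inhibitor II, labelled 2i-Jaki-BMP-Alk5i, it was called 2iJ+B-A (3 libraries, at days 2, 5 and 11). The sorted library held GFP-positive cells of the CDX2-GFP line after 2 days in the 2iJ+B-A mixture, so line and sort cannot be told apart there. Mesoderm progenitors (2 libraries, at days 3 and 4) came from R1 embryoid bodies in another medium for which no serum is listed, re-aggregated on day 2 with BMP4, Activin A and Wnt3a protein. By the methods of the study they were taken on day 3 before IWP-2 was added or after 24 h in it, so that day and inhibitor cannot be told apart. No label says that the libraries of a group came from separate cultures, and they differ in day, so p-values measure the spread between these libraries only.

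Wnt proteins receive a fatty acid from the enzyme Porcn in the endoplasmic reticulum, are carried out of the cell by Wls, and bind Frizzled receptors. With the co-receptors Lrp5 and Lrp6 they stabilise beta-catenin, which drives transcription together with TCF/LEF factors. Other ligands, of which Wnt5a and Wnt11 are the best known, act mainly through Ror and planar polarity proteins on cell shape and movement. In the mouse embryo Wnt3 is needed for the primitive streak, and Wnt3a and Wnt8a are made in the streak as mesoderm forms. IWP-2 blocks Porcn, and CHIR99021 stabilises beta-catenin below the receptors, without any ligand.

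Total counts assigned to genes were 24532587 to 31453888 in the R1 libraries and 19810855 in the sorted library, in which 29.7% of read pairs were unmapped against 2.17% to 3.85% elsewhere. At these depths 3 counts correspond to 0.0954 to 0.151 CPM, and a level under that was not distinguished from 0. Intervals on single libraries are 95% Wilson or exact intervals and cover counting error only. The labels were compared with markers as summed CPM. The primitive streak list of 5 genes stood at 1381 in the day 3 mesoderm library, at 44.2 on day 4 and at 3.19 to 21.4 in the other 6 libraries. The lateral and cardiovascular mesoderm list of 6 genes stood at 317 on day 3 and 1241 on day 4, and at no more than 130 elsewhere, in 2iJ+B-A at day 11. The primitive endoderm list of 4 genes stood at 5.87, 17.6 and 64.4 in 2iJ+B-A at days 2, 5 and 11. It stood at 24.1 and 110 on mesoderm days 3 and 4, 34.2 in the sorted library, 1.56 in 2i and 2.76 in 2iJ. The naive pluripotency list of 6 genes stood at 114 and 135 in the mesoderm libraries and at 1293 to 2353 elsewhere. The trophectoderm list of 7 genes was highest in the sorted library, at 3849. It stood at 545, 1295 and 622 in 2iJ+B-A at days 2, 5 and 11, and at 629 and 859 in the mesoderm libraries. In 2iJ+B-A the keratins Krt8 and Krt18 weighed most in this sum, with means of 364 and 277 CPM. The other genes of the list had means from 0.369 (Elf5) to 79.1 CPM (Tcfap2c). In the sorted library Krt18 and Krt8 were higher than in 2iJ+B-A by 2.585 and 2.307 on the log2 scale, so they weighed most there too. The other log2 fold changes were 3.544 (Cdx2), 1.846 (Gata3), 1.347 (Elf5), 0.9392 (Tcfap2c) and -0.3481 (Hand1). Krt8, Hand1 and Krt18 weighed most in the mesoderm libraries, with means of 294, 291 and 108 CPM. The sum alone therefore does not show trophectoderm identity. In the sorted library the fibroblast list of 4 genes also stood at 88.9 against 7.03 to 15.9 in the others. As these are bulk samples, fewer cells of a type and less RNA per cell cannot be told apart.

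Sequence just upstream of the annotated gene is shown for 5 of the ligands, because they cover 2 patterns of level, which overlap. Wnt3, Wnt3a, Wnt2b and Wnt6 were highest in day 3 mesoderm progenitors. Wnt11 was not, and it stood higher in each 2iJ+B-A library than in 2i and 2iJ, as Wnt6 and Wnt2b also did. Wnt3a did so at day 2 only by 0.122 against 0.117 CPM in 2iJ, on 3 counts in each. Windows of 250 bases were taken from the RefSeq promoter table (GRCm38.p6) for 7 of the 10 ligands, and each was matched once to NCBIM37, the build of the files. The parts outside the annotated gene lie at chr11:103635239-103635463 (plus strand) for Wnt3, chr11:59104255-59104503 (minus strand) for Wnt3a, chr3:104764628-104764877 (minus strand) for Wnt2b, chr1:74818216-74818465 (plus strand) for Wnt6 and chr7:105983372-105983621 (plus strand) for Wnt11. They are written 5′ to 3′, and capitals mark matches on either strand to the letters of known factors. CTTTGAT stands for a TCF/LEF site, the end point of the beta-catenin branch. TCACAC stands for a T-box site, as bound by Brachyury. GCCNNNGGC stands for a site of AP-2 factors, which are made in trophectoderm. GGCGCC stands for a box bound by SMAD1/5, the factors below BMP receptors. TATAAA stands for the TATA box of the core promoter.
Wnt3: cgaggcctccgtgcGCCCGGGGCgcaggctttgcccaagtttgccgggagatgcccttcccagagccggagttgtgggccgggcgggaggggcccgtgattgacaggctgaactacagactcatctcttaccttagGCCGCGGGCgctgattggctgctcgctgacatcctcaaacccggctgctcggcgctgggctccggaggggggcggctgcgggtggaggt
Wnt3a: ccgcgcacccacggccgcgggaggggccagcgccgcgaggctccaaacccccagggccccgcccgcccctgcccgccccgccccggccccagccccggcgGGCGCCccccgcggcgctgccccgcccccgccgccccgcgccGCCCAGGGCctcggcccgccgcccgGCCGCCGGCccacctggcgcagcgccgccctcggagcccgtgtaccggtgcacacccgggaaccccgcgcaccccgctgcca
Wnt2b: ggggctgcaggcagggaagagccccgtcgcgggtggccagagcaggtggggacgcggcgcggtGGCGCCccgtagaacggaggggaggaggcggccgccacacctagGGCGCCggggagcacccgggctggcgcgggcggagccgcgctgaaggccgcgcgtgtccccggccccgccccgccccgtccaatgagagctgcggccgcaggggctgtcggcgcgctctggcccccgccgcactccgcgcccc
Wnt6: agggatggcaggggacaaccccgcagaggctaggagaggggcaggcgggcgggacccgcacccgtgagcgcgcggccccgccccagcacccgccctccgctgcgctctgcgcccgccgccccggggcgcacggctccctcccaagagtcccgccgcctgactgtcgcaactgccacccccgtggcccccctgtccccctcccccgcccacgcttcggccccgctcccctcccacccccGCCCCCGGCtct
Wnt11: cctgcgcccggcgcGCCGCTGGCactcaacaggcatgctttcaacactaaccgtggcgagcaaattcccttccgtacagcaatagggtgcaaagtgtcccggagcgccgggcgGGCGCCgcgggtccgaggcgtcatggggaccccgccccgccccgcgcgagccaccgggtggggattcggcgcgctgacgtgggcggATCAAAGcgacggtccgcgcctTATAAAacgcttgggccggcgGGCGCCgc

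No matches to different motifs overlapped in these 5 stretches. Those of Wnt3 and Wnt6 held AP-2 letters only. The stretch of Wnt2b held the SMAD1/5 box in 2 places, and that of Wnt3a held it once beside the AP-2 letters in 2 places. The stretch of Wnt11 held the SMAD1/5 box in 2 places, the AP-2 letters once, the TATA box once and the TCF/LEF letters once, on the other strand. Over all 32851 windows of the table the SMAD1/5 box was present in 9.59%, the AP-2 letters in 13.7%, the TCF/LEF letters in 3.21%, the T-box letters in 12.3% and the TATA box in 12.4%. The 250-base windows of the 5 ligands were 68.0% (Wnt3), 70.8% (Wnt11), 79.6% (Wnt6), 80.8% (Wnt2b) and 87.6% (Wnt3a) GC, against a median of 52.4%. Among the 5587 windows of at least 65% GC, the SMAD1/5 box was in 32.1% and the AP-2 letters were in 36.9%, while the TCF/LEF letters were in 0.698%. A match describes letters and does not show that a factor binds there.

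The ligand mRNAs were at their highest sum in day 3 mesoderm progenitors. To compare levels between genes, CPM was divided by the exonic length of the gene in kb. For this length the exons of all its annotated transcripts were merged, so that shared bases counted once. On this scale the 10 ligands summed to 120 CPM per kb on day 3 and to 23.6 on day 4. The sum was 4.03 in 2i, 6.95 in 2iJ, 9.32, 19.1 and 13.3 in 2iJ+B-A at days 2, 5 and 11, and 21.8 in the sorted library. All 10 ligands reached 1 CPM on day 3 and 5 of them on day 4. In 2i 3 of the 10 did so, in 2iJ 5, in 2iJ+B-A 8, 9 and 7 at the 3 days, and in the sorted library 7. The 10 genes made up 65.8% of the per-length sum of all 19 Wnt genes in the day 4 library, where Wnt2 and Wnt9b added most of the remainder, and 79.3% to 91.3% in the other 7.

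**Figure D1:**
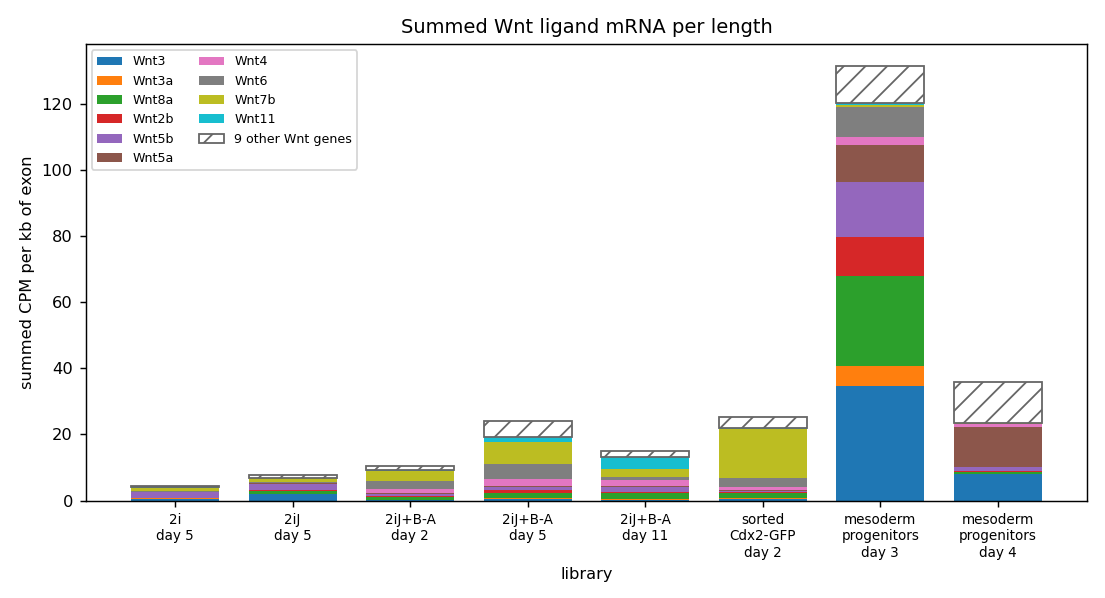
Levels per length of the 10 ligands, stacked by gene, with the 9 other Wnt genes hatched on top, as CPM per kb of exon in each of the 8 libraries. The day 3 mesoderm bar reaches 132, and no other bar passes 35.8.

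Which ligand led on the per-length scale depended on the culture. Wnt3 led on day 3 with 34.8 CPM per kb, or 26.5% of the sum over the 19 genes, followed by Wnt8a with 27.3. Wnt5a led on day 4 with 12.2 CPM per kb, or 34.0%. In 2i and 2iJ Wnt5b led with 1.67 and 1.87 CPM per kb, and in 2iJ Wnt3 followed at 1.84. Wnt7b led in 2iJ+B-A at day 2 (3.02) and day 5 (6.54) with Wnt6 behind it, and Wnt11 led at day 11 with 3.66. In the sorted library Wnt7b, a ligand needed for the chorion to fuse with the allantois in the placenta, stood at 14.8 CPM per kb and made up 58.8% of the sum. Wnt5a has 6 annotated transcripts and 7822 exonic bases, the longest of the 10, so its per-length level is lowered most by this way of counting length.

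**Figure D2:**
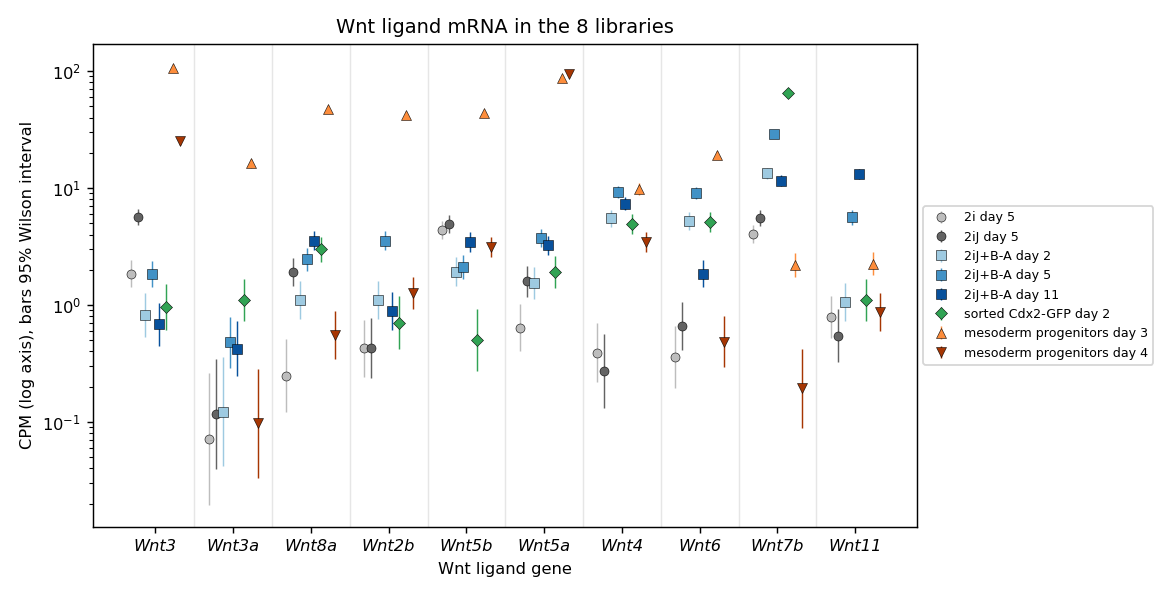
CPM of each ligand in each of the 8 libraries on a log axis, 1 symbol per library, with bars for the 95% Wilson interval of the count. The day 3 mesoderm triangles stand far above the stem cell libraries for Wnt3, Wnt3a, Wnt8a, Wnt2b and Wnt5b, those of both days do so for Wnt5a, and the sorted library is highest for Wnt7b.

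The streak ligands were high in day 3 mesoderm progenitors, and only Wnt3 stayed above every stem cell library on day 4. Wnt3 (ENSMUSG00000000125, chr11:103635464-103679271, plus strand) stood at 107 CPM on day 3, 25.03 on day 4, 1.85 in 2i, 5.64 in 2iJ, 0.815, 1.84 and 0.684 in 2iJ+B-A at days 2, 5 and 11, and 0.959 in the sorted library. The 2 mesoderm libraries did not overlap the others, and 2iJ stood above the remaining 5. Wnt3a (ENSMUSG00000009900, chr11:59061535-59104254, minus strand) stood at 16.3 CPM on day 3 and 0.0969 (3 counts) on day 4, at 0.0711 in 2i, 0.117 in 2iJ, 0.122, 0.477 and 0.423 in 2iJ+B-A, and 1.11 in the sorted library. Its mRNA was thus near the floor on day 4. By the methods the cells of both days had received Wnt3a protein, and those of day 4 also IWP-2. The day 3 level was 168 times that of day 4, with an exact counting interval of 57.2 to 817.

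Wnt8a (ENSMUSG00000012282, chr18:34701967-34707927, plus strand) stood at 47.7 CPM on day 3, 0.549 on day 4, 0.249 in 2i, 1.91 in 2iJ, 1.10, 2.45 and 3.55 in 2iJ+B-A, and 2.98 in the sorted library. Wnt2b (ENSMUSG00000027840, chr3:104747723-104764627, minus strand), a ligand of the beta-catenin branch, stood at 42.0 CPM on day 3, 1.26 on day 4, 0.426 in 2i, 0.428 in 2iJ, 1.10, 3.53 and 0.879 in 2iJ+B-A, and 0.707 in the sorted library. For both genes the day 4 library lay among the stem cell libraries. Between day 3 and day 4 the ratio was 86.9 for Wnt8a (interval 54.1 to 150) and 33.4 for Wnt2b (24.3 to 47.1).

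Of the ligands best known outside the beta-catenin branch, Wnt5a was high on both mesoderm days and Wnt5b on day 3. Wnt5a (ENSMUSG00000021994, chr14:29317936-29340633, plus strand) stood at 87.3 CPM on day 3, 95.2 on day 4, 0.639 in 2i, 1.60 in 2iJ, 1.55, 3.75 and 3.22 in 2iJ+B-A, and 1.92 in the sorted library. It differed by only 1.09 times between the mesoderm days, the least of the 10. Wnt5b (ENSMUSG00000030170, chr6:119382549-119494336, minus strand), its close relative, stood at 43.5 CPM on day 3, 3.13 on day 4, 4.37 in 2i, 4.90 in 2iJ, 1.92, 2.10 and 3.45 in 2iJ+B-A, and 0.505 in the sorted library. It was lowest in the sorted library, below every 2iJ+B-A library, and the 2i and 2iJ levels overlapped in their intervals. Wnt11 (ENSMUSG00000015957, chr7:105983622-106003705, plus strand), which guides cell movement in gastrulation, stood at 2.26 CPM on day 3, 0.872 on day 4, 0.782 in 2i, 0.545 in 2iJ, 1.06, 5.63 and 13.3 in 2iJ+B-A, and 1.11 in the sorted library. It was the member with its highest level in the latest 2iJ+B-A library.

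The remaining 3 ligands are known from epithelia and were higher in each 2iJ+B-A library than in 2i and 2iJ. Wnt4 (ENSMUSG00000036856, chr4:136833404-136855641, plus strand), needed for kidney tubules and the female gonad, stood at 0.391 CPM in 2i and 0.272 in 2iJ, at 5.50, 9.19 and 7.32 in 2iJ+B-A, 4.90 in the sorted library, and 9.79 and 3.46 in the mesoderm libraries. Wnt6 (ENSMUSG00000033227, chr1:74818466-74831893, plus strand) stood at 0.355 CPM in 2i and 0.662 in 2iJ, at 5.22, 9.12 and 1.86 in 2iJ+B-A, 5.15 in the sorted library, and 19.05 and 0.485 in the mesoderm libraries. Wnt4 was thus lower in 2i and 2iJ than in the other 6 libraries, while Wnt6 was as low on mesoderm day 4. Wnt7b (ENSMUSG00000022382, chr15:85365869-85412251, minus strand) stood at 4.05 CPM in 2i and 5.53 in 2iJ, at 13.3, 28.9 and 11.6 in 2iJ+B-A, 65.4 in the sorted library, and 2.19 and 0.194 in the mesoderm libraries. The mesoderm libraries held less Wnt7b than any stem cell library, and the sorted cells held the most.

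The comparison of mesoderm progenitors with 2iJ+B-A asked how a directed mesoderm culture differs from the BMP4 and ALK5 inhibitor culture. Wnt3 and Wnt5a were higher in mesoderm progenitors and Wnt7b was lower, and 7 of the 10 did not pass the test. Wnt3 was higher by 5.89 on the log2 scale (SE 0.751, adjusted p = 0.0046), Wnt5a was higher by 5.02 (SE 0.391, adjusted p = 0.00152), and Wnt7b had a log2 fold change of -3.89 (SE 0.980, adjusted p = 0.0310). These come from edgeR's quasi-likelihood test on 2 against 3 libraries, adjusted by Benjamini-Hochberg over all 16961 genes. In the same comparison 4584 genes were called, 27% of those tested, with 11.5% higher and 15.5% lower. The 3 of 10 ligands called were therefore near the background share. The median log2 fold change was 3.29 for the 10, 0.398 for the 8 other Wnt ligands tested and -0.03 over all genes.

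Of the 7 ligands that did not pass, 4 had the larger log2 fold changes above 0. Wnt5b had a log2 fold change of 3.22 (adjusted p = 0.0510), Wnt3a of 4.55 (0.0815), Wnt2b of 3.56 (0.0876) and Wnt8a of 3.35 (0.127), each with a high day 3 value and a day 4 value near the stem cell level. Wnt11 had -2.08 (0.189), Wnt6 had 0.86 (0.646), with its mesoderm days on either side of the 2iJ+B-A libraries, and Wnt4 had -0.14 (0.869). With the day 4 library left out, 7 of 10 passed, 6 of them higher (Wnt3, Wnt3a, Wnt5a, Wnt5b, Wnt8a and Wnt2b), against 19.5% of all genes, and the median of the 10 was 4.27. With the day 3 library left out the same 3 as in the whole comparison passed, against 27.2% of all genes, the median was -1.36, and Wnt3a (-1.71), Wnt8a (-2.02), Wnt6 (-3.38) and Wnt2b (-0.46) had the opposite sign. In each of these fits a lone mesoderm library was assumed to vary like the other groups. Wnt7b did not pass when any of the 3 2iJ+B-A libraries was left out (adjusted p from 0.0525 to 0.0869), with log2 fold changes between -4.08 and -3.36. DESeq2's Wald test called 7 of the 10 on all libraries, against 32.4% of all genes.

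**Figure D3:**
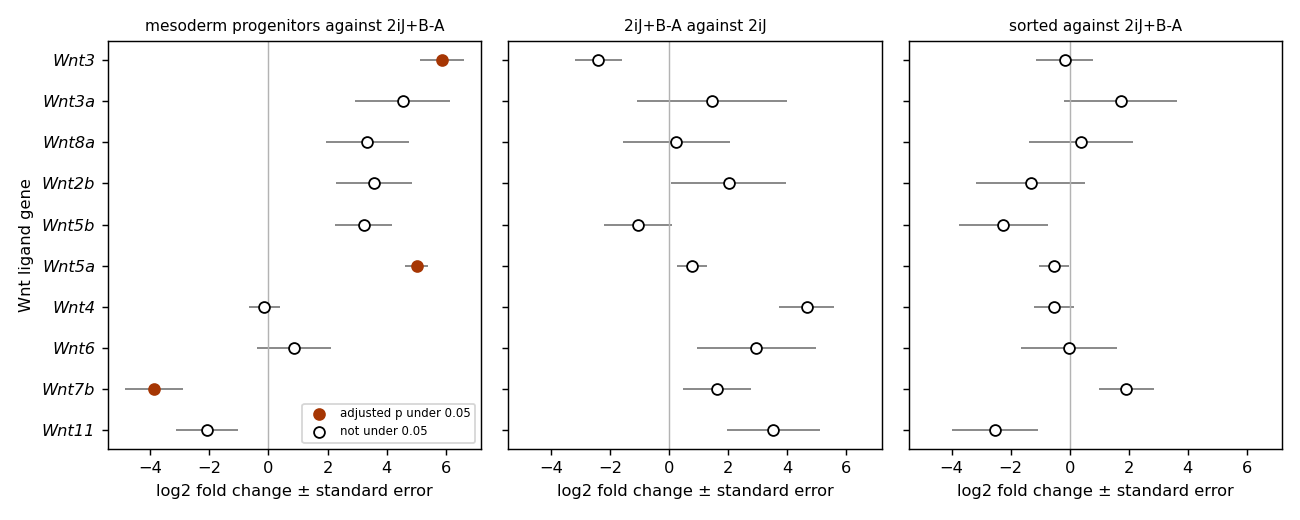
Log2 fold change with its standard error for each ligand in 3 comparisons, all from edgeR's quasi-likelihood fit of the 8 libraries, with filled points for an adjusted p under 0.05. Wnt3, Wnt5a and Wnt7b are filled in the mesoderm panel, and no ligand is filled in the other panels.

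Between the 2 mesoderm libraries there was no replicate, so only ratios with their counting intervals can be given. Of the 10 ligands, 7 were at least 4 times higher on day 3 than on day 4 (Wnt3, Wnt3a, Wnt5b, Wnt6, Wnt7b, Wnt8a and Wnt2b), which held for 5.27% of the 16961 genes. None was at least 4 times lower on day 3, as 3.48% of genes were. The ratio was 4.27 for Wnt3 (3.95 to 4.63), 13.9 for Wnt5b (11.3 to 17.2), 39.3 for Wnt6 (23.6 to 70.7) and 11.3 for Wnt7b (4.94 to 31.9). It was 2.83 for Wnt4 and 2.59 for Wnt11. Of the Wnt genes outside the 10, Wnt9b was 5.71 times higher on day 4 (4.52 to 7.29) and Wnt16 5.49 times (2.08 to 18.2). Wnt10b (30 against 2 counts), Wnt10a (22 against 0) and Wnt7a (9 against 1) were higher on day 3. Among the streak markers T (Brachyury), a target of beta-catenin, stood at 547 and 6.30 CPM in these libraries, which differ in day, in IWP-2 and in the streak list as a whole. The carrier Wls was 2.298 times higher on day 4 (2.21 to 2.39). The parts of the marker lists in the ligand ratios were not tested.

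Judged by overlap alone, Wnt3 and Wnt5a were higher in both mesoderm libraries than in the 5 unsorted stem cell libraries, as 22.9% of genes were, and Wnt7b was lower in both, as 25.7% were.

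What BMP4 and ALK5 inhibition added to the 2iJ culture was read from 2iJ+B-A set against 2iJ. In the 3 2iJ+B-A libraries 6 ligands stood above both 2i and 2iJ (Wnt3a, Wnt4, Wnt6, Wnt7b, Wnt11 and Wnt2b), as 26.5% of all genes did. Wnt3 and Wnt5b stood below both, as 17% of genes did. Wnt3 in 2iJ+B-A at day 5 was 1.844 CPM and in 2i 1.847 CPM, so the gap to 2i was within counting error. Wnt3a rested on 2 to 15 counts in these libraries, with 3 counts in both 2iJ and 2iJ+B-A at day 2, so that gap was within counting error. The Wilson intervals of Wnt11 at day 2 and Wnt2b at day 11 of 2iJ+B-A also overlapped those of 2i and 2iJ. That of Wnt2b at day 2 overlapped 2iJ. For Wnt5b at day 11 of 2iJ+B-A the interval (2.85 to 4.17) overlapped those of 2i (3.66 to 5.21) and 2iJ (4.12 to 5.84).

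No ligand passed the test in this comparison, in which 3 libraries met 1. Wnt4 came nearest, with a log2 fold change of 4.66 (SE 0.942, edgeR adjusted p = 0.358, unadjusted p = 0.00214). Wnt3 was next with -2.40 (SE 0.799, adjusted p = 0.561). Wnt11 had 3.53 (SE 1.58), Wnt6 2.95 (SE 2.02), Wnt2b 2.02 (SE 1.94), Wnt7b 1.63 (SE 1.14), Wnt3a 1.46 (SE 2.54), Wnt5a 0.77 (SE 0.509), Wnt8a 0.25 (SE 1.82) and Wnt5b -1.04 (SE 1.15). edgeR called 0 of 16961 genes (0%), while 1290 genes and 2 of the 10 ligands, Wnt4 and Wnt3, had an unadjusted p under 0.05. DESeq2 called 1.8% of genes and Wnt4 among them (log2 fold change 4.67). With 2i and 2iJ pooled as the reference, edgeR called 0.884% of genes and again Wnt4 (log2 fold change 4.37, adjusted p = 0.0396).

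At the matched day 5 the single libraries gave ratios without a replicate check. Of the 10 ligands 6 were at least 4 times higher in 2iJ+B-A than in 2iJ, as 5.39% of genes were, and none at least 4 times lower, as 2.39% were. They were Wnt4 with a ratio of 33.7 (16.2 to 84.6), Wnt6 with 13.8 (8.46 to 24.0), Wnt11 with 10.3 (5.995 to 19.3), Wnt2b with 8.24 (4.43 to 17.0), Wnt7b with 5.22 (4.37 to 6.28) and Wnt3a with 4.09 (1.16 to 22.0). The interval for Wnt3a reached below 4, as it rested on 15 against 3 counts. Wnt3 was instead 3.06 times higher in 2iJ (2.24 to 4.23). Between 2iJ and 2i, which differ by the JAK inhibitor, Wnt8a was 7.67 times higher in 2iJ (3.46 to 20.1) and the only member past 4 times, as 1.35% of genes were, with none lower by that much (0.436% of genes). Wnt3 was 3.05 times higher in 2iJ than in 2i (2.21 to 4.28).

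**Figure D4:**
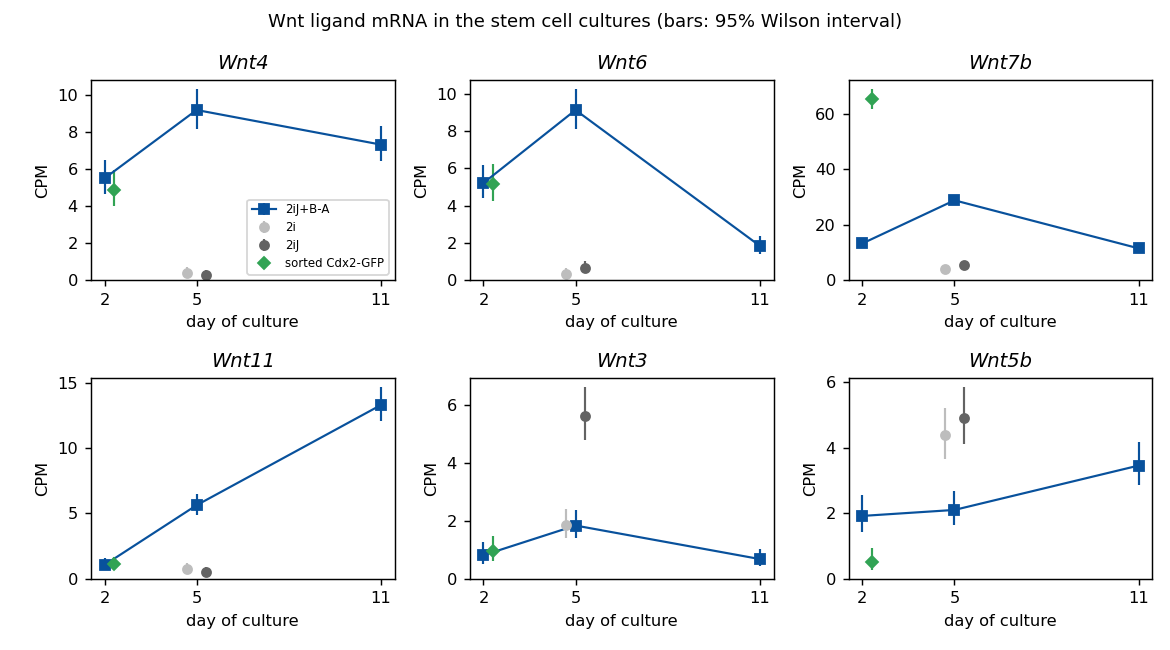
CPM of 6 ligands in 2iJ+B-A at days 2, 5 and 11 (blue line), with 2i, 2iJ and the sorted Cdx2-GFP library beside them and bars for the 95% Wilson interval. Wnt11 stands at 1.06, 5.63 and 13.3, Wnt4, Wnt6 and Wnt7b are highest at day 5, and the sorted library stands at 65.4 for Wnt7b.

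Over the days of 2iJ+B-A, Wnt11, Wnt8a and Wnt5b stood higher at each later day, while all other listed ligands were highest at day 5. For Wnt3a, Wnt4 and Wnt5a the Wilson intervals at days 5 and 11 overlapped. Wnt11 was 5.31 times higher at day 5 than at day 2 (3.51 to 8.35) and 2.36 times higher at day 11 than at day 5 (1.97 to 2.83). For Wnt8a the ratios were 2.22 (1.42 to 3.59) and 1.45 (1.07 to 1.97). For Wnt5b they were 1.10, with an interval that held 1 (0.742 to 1.63), and 1.64 (1.198 to 2.27). Wnt11 was the only member past 4 times between days 2 and 5, where 2.58% of genes were that much higher and 0.784% that much lower. From day 5 to day 11 Wnt6 was 4.92 times lower (3.69 to 6.66) and Wnt2b 4.02 times lower (2.62 to 6.36), as 1.37% of genes were, and no member was 4 times higher, as 0.949% were. As a slope on log2 of the day, Wnt11 had 1.47 per doubling of time (SE 0.381, edgeR adjusted p = 0.827, unadjusted p = 0.0113). No gene passed this test (0% of 16961), and no ligand but Wnt11 had an unadjusted p under 0.05, where 1004 of all genes had one. Left without the mesoderm day 3 library the fit called Wnt11 (adjusted p = 0.0249) and 2.27% of genes, and left without the day 4 library it called Wnt11 (0.0153) and 2.81%.

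The sorted library was set against the unsorted 2iJ+B-A culture to ask how cells with an active Cdx2 reporter differ. No ligand passed the edgeR test against the 3 2iJ+B-A libraries, in which 919 genes, 5.42%, were called. The spread of this lone library was taken from the other groups in the fit, and the number of genes called was 27 at day 2 with a slope and 37 to 117 with 1 of the 2iJ+B-A libraries left out. None of the 10 had an unadjusted p under 0.05 by edgeR, where 4586 of 16961 genes had one. DESeq2 called none of the 10, with 2 under 0.05 unadjusted, where 4606 of all genes were. Wnt7b had a log2 fold change of 1.92 (SE 0.935, edgeR adjusted p = 0.241), Wnt3a of 1.73 (SE 1.90), Wnt11 of -2.53 (SE 1.47) and Wnt5b of -2.24 (adjusted p = 0.378). Against the 2iJ+B-A library of the same day alone, Wnt7b was 4.90 times higher (4.34 to 5.55) and Wnt3a 9.08 times (2.73 to 47.4, on 22 against 3 counts), as 7.26% of genes were by at least 4 times. None was at least 4 times lower, as 6.16% of genes were, and Wnt5b was 3.80 times lower (1.89 to 8.42). Wnt8a was 2.71 times higher (1.69 to 4.44). Wnt4, Wnt5a, Wnt6, Wnt3, Wnt11 and Wnt2b had intervals that held 1, from 0.311 at the lowest to 2.32 at the highest. The share of unmapped pairs and the fibroblast markers also stood apart in the sorted library, and their part in these values was not tested.

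The machinery that makes, carries and receives the ligands was described from lists of pathway genes. Of 79 listed genes tested beside the 10 ligands, 34 were called in mesoderm progenitors against 2iJ+B-A (43%, against 27% of all genes). Of these 28 were higher and 6 lower, where 11.5% of all genes were higher and 15.5% lower. With 1 library left out, 15 to 40 of the listed genes were called (15 without 2iJ+B-A day 5, 20 without day 2 or day 11, 25 without mesoderm day 4 and 40 without day 3), where 12.1% to 27.2% of all genes were. Among 12 genes for lipidation, secretion and release, 4 were higher in mesoderm progenitors than in 2iJ+B-A and 1 was lower. Wls was higher by 1.82 on the log2 scale (SE 0.343, edgeR adjusted p = 0.0135), at 107 and 247 CPM against 45.4 to 54.0. Gpc3, a glypican that binds Wnt at the cell surface, was higher by 4.03 (SE 0.577), at 175 and 710 CPM. Porcn was lower, with a log2 fold change of -1.47 (SE 0.346, adjusted p = 0.0254), at 6.30 and 4.01 CPM against 12.0 to 18.7. Wls passed with any 1 mesoderm or 2iJ+B-A library left out, while Porcn did not pass without mesoderm day 4 or without 2iJ+B-A day 5 or day 11.

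Of 10 Frizzled receptors, 4 were higher (Fzd1, Fzd2, Fzd3 and Fzd7) and Fzd5 was lower, beside 11.5% and 15.5% of all genes. With the day 3 mesoderm library left out 8 of 10 passed, 5 higher and 3 lower, and with 2iJ+B-A day 5 or day 11 left out 3 did, Fzd1, Fzd7 and Fzd5. Fzd7 stood at 203 and 209 CPM against 59.5 to 72.9 in 2iJ+B-A, and Fzd5 at 12.9 and 9.82 against 60.4 to 87.7. Of 6 co-receptors and alternative receptors, 3 were higher, Ptk7, Lrp5 and Lrp6, the last by 0.81 on the log2 scale. Lrp6 did not pass without mesoderm day 4 or any 2iJ+B-A library, and Lrp5 did not without mesoderm day 4. In the R-spondin branch, which keeps Frizzled at the cell surface, Rspo3 and Lgr4 were higher and Lgr5 and Rspo2 lower, of 9 tested. With a single mesoderm or 2iJ+B-A library left out, Lgr5 passed only without 2iJ+B-A day 11. Rspo2 did not pass without mesoderm day 4 or without 2iJ+B-A day 5. Rspo3 stood at 59.8 and 29.0 CPM in mesoderm progenitors and at no more than 0.623 in any stem cell library.

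Of 18 listed inhibitors 13 passed the filter, and Shisa2, Apcdd1 and Frzb were higher, beside 11.5% of all genes. With the day 3 mesoderm library left out 7 were called, 4 higher and 3 lower, and with any 2iJ+B-A library left out only Frzb was. Frzb, a secreted Wnt binder, stood at 133 and 35.0 CPM against 2.48 to 7.06 in 2iJ+B-A. Of 9 beta-catenin response genes 5 were higher and none lower (T, Sp5, Lef1, Nkd1 and Tcf7), T being also in the streak list. With the day 3 mesoderm library left out 3 were higher (T, Lef1 and Nkd1) and Cdx1 was lower. With a 2iJ+B-A library left out 1 to 3 were higher (Nkd1 alone without day 5, Lef1 and Nkd1 without day 2), and without mesoderm day 4 6 were. Sp5 stood at 162 CPM on day 3 and 1.195 on day 4, while Lef1 stood at 191 and 52.0 and Nkd1 at 61.2 and 30.5. Of 12 planar polarity genes 6 were higher, Prickle1 by 2.61 (SE 0.460) and Vangl2 by 1.00 (SE 0.158) among them, and Vangl1 was lower, with -1.39 (SE 0.279). These 3 were the only ones called when mesoderm day 4 or any 2iJ+B-A library was left out. Of the 8 other Wnt ligands past the filter, Wnt2, which is made in the early placenta and heart, was higher, at 21.0 and 18.9 CPM against 0.0326 to 0.318, and Wnt8b was lower. Wnt8b did not pass, or was not tested, without mesoderm day 3 or any 2iJ+B-A library.

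**Figure D5:**
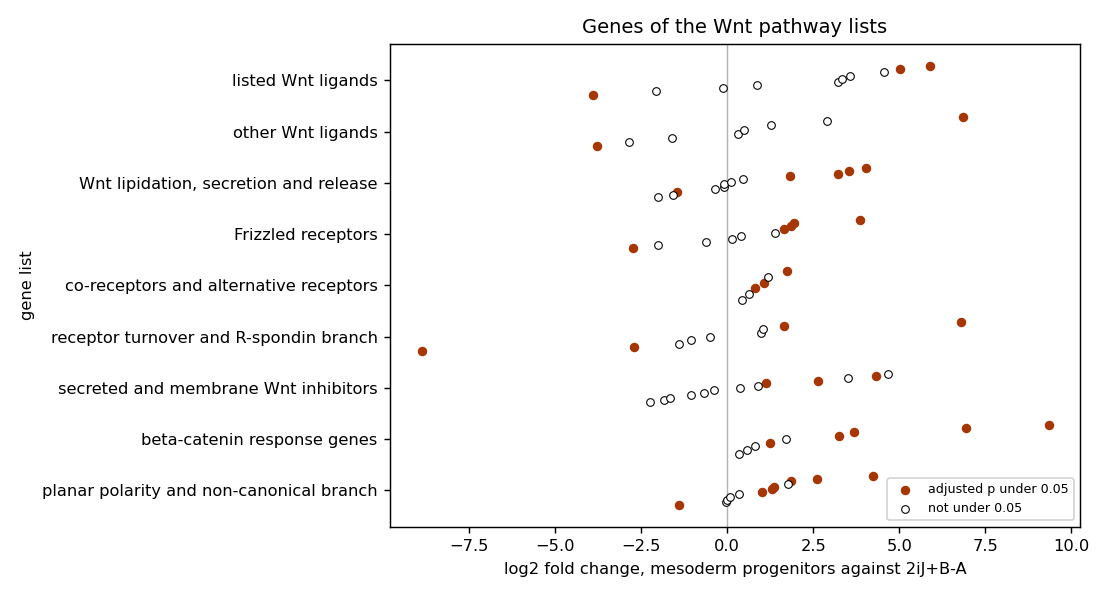
Log2 fold change of each tested gene of the 9 Wnt lists in mesoderm progenitors against 2iJ+B-A, 1 point a gene, filled where the edgeR adjusted p is under 0.05. Beta-catenin response genes hold no point below 0, and Frizzled receptors hold filled points on both sides.

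In the sorted library against 2iJ+B-A, 6 of the 79 listed genes were called (7.59%, against 5.42% of all genes), in a fit where this lone library of another line was assumed to vary like the other groups. None of the 6 passed with 2iJ+B-A day 5 or day 11 left out or at day 2 with a slope, and without day 2 only Snx3 did. The library also had 29.7% of pairs unmapped and the fibroblast list at 88.9 CPM, and the part of these in the calls was not tested. Against 2iJ+B-A the sorted library was higher for Snx3 by 1.61 on the log2 scale (SE 0.164, edgeR adjusted p = 0.00984) and for the Dkk1 receptor Kremen1 by 1.58 (SE 0.259, adjusted p = 0.0303). It was lower for Fzd5 at 18.2 CPM, for Vangl2 at 16.9 CPM and for Ror1 at 0.555 against 6.03 to 12.4 CPM. Lgr5 had no count in the sorted library against 2.15 to 6.16 CPM in 2iJ+B-A. Snx3 is part of the route that returns Wls to the Golgi. Between 2iJ+B-A and 2iJ edgeR called 0% of all genes, so the lists held none either, while DESeq2 called 3 of the 79 (3.8%, against 1.8% of all genes).

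Genes with the most similar profile over the 8 libraries were found among 13033 protein-coding genes by Pearson's r of log2 CPM, as a description in which the libraries share lines and treatments. Wnt3 was nearest to Fgf8 (r = 0.994), a growth factor of the primitive streak, then to 2500003M10Rik and Txnrd1. Wnt4 was nearest to Sel1l3 (0.972), with Klhl26 and the secreted Wnt inhibitor Dkk1 (0.962) next. Wnt5a was nearest to Crybg3 (0.993), Wnt7b to Esrp2 (0.993), an epithelial splicing factor, Wnt11 to Fam20c (0.987), Wnt3a to Ifrd2 (0.983), Wnt5b to 2010002N04Rik (0.980), Wnt2b to Ddr1 (0.974), Wnt6 to F2rl1 (0.971) and Wnt8a to Nfkbib (0.958). With the day 3 mesoderm library left out, a choice made after seeing the data, these 10 nearest genes had r of 0.861 (Wnt8a) to 0.994 (Wnt7b) over 7 libraries.

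Several ligands lie near or over other genes. Wnt5a, Wnt7b and Wnt11 share exonic bases with a transcript on the opposite strand (358 with Gm2670, 38 with AU022754 and 364 with Gm8398), and Wnt5b overlaps Fbxl14 without shared exonic bases. The counts used were those of the strand of the gene. Wnt3a lies 16.2 kb from Wnt9a, Wnt3 24.3 kb from Wnt9b and Wnt6 6196 bases from Wnt10a. Of these neighbours, Wnt9b stood at 2.67 CPM on mesoderm day 3 and 15.2 on day 4, while Wnt3 was higher on day 3. Wnt9a stood at 2.16 and 0.969 CPM on these days, and at 9.59 in the sorted library. This was 4.52 times as high as in 2iJ+B-A of the same day (3.31 to 6.27). In unsorted 2iJ+B-A it stood at 2.12, 9.73 and 2.73 CPM at days 2, 5 and 11, so the day 5 library was as high as the sorted one. Wnt10a stood at no more than 0.699 CPM in any library.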

How the data were processed

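Poly-A RNA of the 8 libraries had been made into strand-specific libraries and sequenced as read pairs. The authors trimmed reads and aligned them to NCBIM37 with STAR (2.4.2a in the submitters' processing notes). The deposited files hold unnormalised counts per gene, unstranded and by strand, without the batch adjustment the study used elsewhere. Counts of the reverse strand were used here, as 5.03% to 6.47% of gene counts lay on the other strand. Rows for unmapped and unassigned pairs stayed out of library sizes. Genes past the count filter (minimum 10 in 2 libraries) were fitted jointly with edgeR (4.0.16, R 4.3.3; TMM scaling, 5 group terms, 3 residual degrees of freedom, glmQLFTest, Benjamini-Hochberg, threshold 0.05), after the code was tested on simulated data. The slope fit had 2 residual degrees of freedom. Standard errors were derived from the fold change and F. Alternatives were DESeq2 (1.42.0), other size factors, no filter, unstranded counts, only the groups compared, other references and each library left out. The members, the gene lists and the 4-fold limit for single libraries were chosen with earlier results of these data known. All 10 ligands are named throughout. Up to 4 called members a list with at least 5 CPM in 1 library were given values, and other called members are named without values. For likeness, the genes with the highest r among protein-coding genes were taken. Of 129 listed and marker symbols, 128 matched the annotation. Motifs and windows were matched by exact letters.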

Additional observations from a re-analysis of the deposited data

Results flagged for a closer look

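Counts on the strand opposite to Wnt2b stood above the share seen over all genes of the same library (5.03% to 6.47%). Of the counts on both strands of Wnt2b, the opposite strand took 41.8% in mesoderm progenitors at day 4 (28 of 67), 53.3% in the sorted library (16 of 30), 47.6% in 2iJ (10 of 21), 34.1% in 2iJ+B-A at day 2 (14 of 41) and 16.5% in 2iJ+B-A at day 5 (22 of 133), where the lower 95% Wilson bound was above the library's own share. The same held on fewer than 10 opposite-strand counts in 2i (5 of 17, 29.4%) and in 2iJ+B-A at day 11 (9 of 36, 25%). In mesoderm progenitors at day 3, where Wnt2b was highest, the share was 3.92% (54 of 1376). No gene on the opposite strand overlaps Wnt2b in the annotation used.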

How the results depend on the processing

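Of the log2 fold changes of single ligands under the alternatives, 374 kept their direction and their side of the threshold, 15 passed it newly, 3 no longer passed and 18 changed sign. In mesoderm progenitors against 2iJ+B-A, ligands called were 7 of 10 by DESeq2 and 5 without the filter, against 3; leaving out 1 library gave 2 to 7 ligands and 2019 to 4538 genes (2019 without 2iJ+B-A day 5, 2666 without day 11). Leave-one-out log2 fold changes ran from -1.71 to 5.59 for Wnt3a, -1.01 to 0.47 for Wnt4, -3.38 to 1.87 for Wnt6, -2.02 to 4.38 for Wnt8a and -0.46 to 4.57 for Wnt2b. For the sorted library against 2iJ+B-A, no alternative called a ligand, while genes called were 2697 by DESeq2, 1390 without the filter, 1911 with only the 2 groups, 27 at day 2 with a slope, and 37 to 2052 with 1 library left out (91, 37 and 117 without 2iJ+B-A day 2, 5 or 11, 1987 and 2052 without mesoderm day 3 or 4). There, leave-one-out values ran from -0.42 to 0.39 for Wnt3 and from -0.42 to 0.57 for Wnt6, and Wnt5a was 0.074 at day 2 with a slope and Wnt6 0.0037 with only the 2 groups. For 2iJ+B-A against 2iJ, 305 genes by DESeq2 and 150 with 2i and 2iJ pooled were called, each with 1 ligand, Wnt4; Wnt8a ran from -0.18 to 0.58. For the slope, 115 genes by DESeq2, 2 without the filter and 0 to 469 with 1 library left out were called, with 0 to 1 ligand. Leave-one-out slopes ran from -1.23 to 0.83 for Wnt3, -0.12 to 1.40 for Wnt3a, -0.26 to 0.50 for Wnt4, -0.16 to 0.90 for Wnt5a, -1.99 to 0.55 for Wnt6, -1.13 to 0.78 for Wnt7b and -1.73 to 1.21 for Wnt2b. Unstranded counts moved Wnt2b to 0.805 CPM in 2iJ and 1.52 CPM in the sorted library. Fewer libraries leave fewer residual degrees of freedom; otherwise the cause was not tested. No paired analysis was possible because no label links a library of a group to a library of another group.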
